A study of Triticum aestivum with 2 samples.

Results

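The genes compared here are the wheat genes that the study listed as markers of xylem (4 genes) and of phloem (5 genes, plus 1 that it only plotted). These 10 genes were matched by gene ID and stand against 100981 gene IDs counted on the 2 chips together, 96646 on the distal root region chip and 77502 on the root cap region chip. The study selected them by eye for a fitting pattern on segmented sections of these same chips. They came from the top genes of its single-cell xylem and phloem clusters. It showed the xylem and the phloem genes on different sections of the distal root region chip, so signal on that chip was part of the choice. The concentration of the genes toward the root centre was also what chose them. Every value of it below, every contrast of the genes between sections, and every ratio between the chips is a description with no test.

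The sections were 10 μm cross-sections of soil-grown roots of the wheat Chinese Spring, with no treatment given in the labels, cut in the distal root region for 1 chip and in the root cap region for the other. Stereo-seq captures RNA on a chip of barcoded spots, and each captured molecule is counted through its molecular identifier (MID). Each region had 1 library, and with no replicates the comparisons below are given without tests or p-values. All intervals are exact 95% Poisson or binomial limits, which cover counting error only, and sections of 1 chip are not independent samples.

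In a root, xylem carries water and minerals upward and phloem carries sugars, and strands of both lie in the central cylinder, inside endodermis and pericycle. Xylem vessels become conducting only when their cells die and empty themselves, and cysteine proteases such as XCP1 act in that digestion in Arabidopsis. Phloem sieve elements stay alive while they lose their nucleus.

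All 4 xylem genes belong to the XCP1 group of orthologs. TraesCS5A03G0388600, TraesCS5B03G0387000 and TraesCS5D03G0377000 are its copies on chromosomes 5A, 5B and 5D, and TraesCS1A03G0062800 is a further copy on 1A. Of the phloem genes, TraesCS7D03G0500500 is an ortholog of Arabidopsis HVA22E, of a family of stress-inducible membrane proteins first described in barley. TraesCS2A03G0073400, TraesCS2B03G0108200 and TraesCS2D03G0068900 form 1 group of orthologs on 2A, 2B and 2D. TraesCS6A03G0202900 belongs to a group on 6A and 6B, and the plotted gene TraesCS6D03G0279900 is an ortholog of ENODL15, an early nodulin-like protein of Arabidopsis sieve elements. No role is given in the sources used here for the genes on 2A, 2B, 2D and 6A.

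In total 77515877 MIDs were counted for the distal root region, 77.1% of them exonic, and 28281662 for the root cap region, 61.1% of them exonic. Section outlines were drawn by hand around the tissue seen in the summed MIDs, 4 in the distal root region with 1406879 to 2207980 MIDs of nuclear genes each, and 10 in the root cap region with 86891 to 619321 each. They were numbered here by place on the chip, and these numbers could not be matched to those of the study. Position was expressed as a relative radius, 0 at the centre of a section and 1 at its outline. It was divided into a central zone (below 0.37), an endodermis and pericycle zone (0.37 to 0.50), a cortex zone (0.50 to 0.85) and an outermost zone. For orientation, the 8 genes of the provascular list had a median radius of 0.240, the 5 pericycle genes 0.426 and the 5 endodermis genes 0.518, against 0.709 for all nuclear MIDs of the distal sections. The study picked these genes by eye for such positions in the same spatial data, so their order is no test of the geometry. It expected provascular signal at the centre because, in its account, hollow metaxylem there attracts diffused signal. It also named transcript diffusion as a limit of its spatial data. Each of these zones can contain more than 1 tissue.

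The first question was how the xylem and phloem genes share the sections. In section 1 of the distal root region the xylem genes had 174 MIDs and the phloem genes 5. Section 2 had 41 xylem and 29 phloem MIDs, section 3 had 39 and 34, and section 4 had 44 and 52. Xylem genes thus made up nearly all member MIDs of section 1, while the lists were close to even in the other sections. The xylem share was 97.2% in section 1 (93.6 to 99.1), 58.6% in section 2 (46.2 to 70.2), 53.4% in section 3 (41.4 to 65.2) and 45.8% in section 4 (35.6 to 56.3). The intervals of sections 2, 3 and 4 overlap each other and lie apart from that of section 1. The study showed the lists on different sections of this chip, so the contrast can follow in part from that choice. Fewer cells of a type and less RNA per cell cannot be told apart in such counts.

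**Figure D1:**
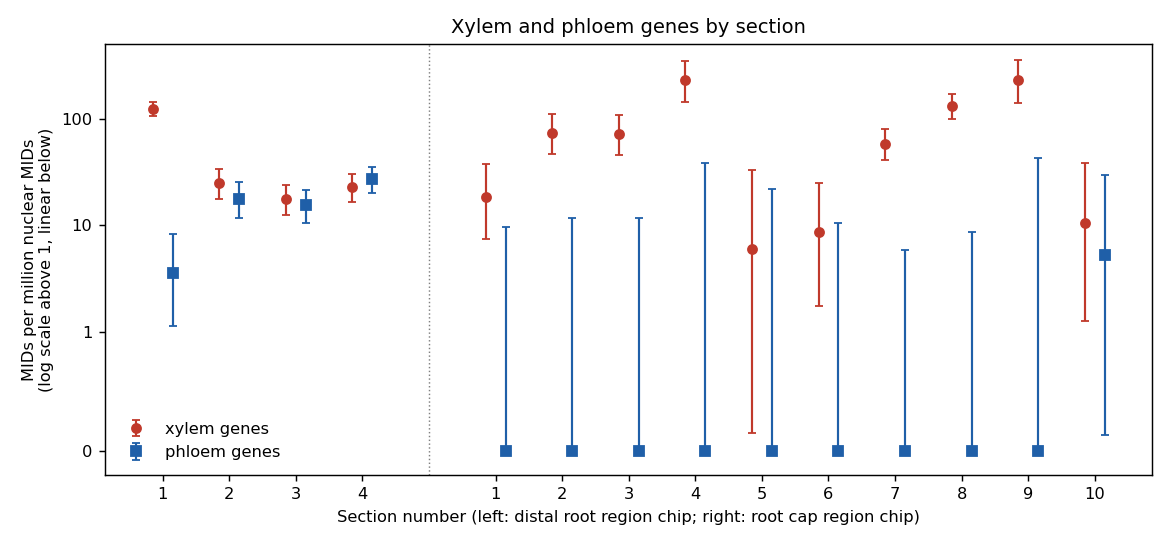
MIDs of the 4 xylem genes (circles) and of the 5 phloem genes (squares) per 1000000 nuclear MIDs of each section, on a scale that is logarithmic above 1 and linear below, with exact 95% Poisson limits. Left, the 4 distal sections, and right, the 10 root cap region sections. Xylem genes reach 123.7 in distal section 1 and lie beside the phloem genes in distal sections 2 to 4, and phloem genes are at 0 in 9 of the 10 root cap region sections.

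As rates, the xylem genes had 123.7 MIDs per 1000000 nuclear MIDs in section 1 (106 to 143.5), against 24.9, 17.7 and 22.8 in sections 2, 3 and 4. The phloem genes had 3.55 per 1000000 in section 1 (1.15 to 8.29), against 17.6, 15.4 and 26.97. Section 1 over sections 2 to 4 together, the rate was 5.77 times as high for the xylem list (4.56 to 7.32) and 0.179 times for the phloem list (0.057 to 0.429). Section 1 also differed in other ways. Its outline measured 1060 by 1190 spots, against widths of 1140 to 1200 and heights of 1270 to 1310 spots for the others, and was less round. Over all 31114 genes with at least 20 MIDs, 26.3% were at least 2-fold higher in section 1 than in sections 2 to 4 and 19% at least 2-fold lower, with a median log2 ratio of 0.20. TraesCS5A03G0388600, TraesCS5D03G0377000 and TraesCS1A03G0062800, with at least 20 MIDs on either side, were past 2-fold higher. They were chosen on sections of this chip, so this is a description only. TraesCS5B03G0387000 and the phloem genes TraesCS2B03G0108200 and TraesCS7D03G0500500 reached 20 MIDs only through the sections in which they were high, so nothing is read from their side of 2-fold. Whether section 1 lay at another height of the root, or in another root, was not tested.

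Each xylem gene showed this contrast. TraesCS5A03G0388600 had 57 MIDs in section 1, against 6, 19 and 17 in sections 2, 3 and 4 (ratio of rates 5.58, 3.68 to 8.52). TraesCS5D03G0377000 had 25, against 9, 6 and 10 (4.11, 2.27 to 7.46), and TraesCS1A03G0062800 had 43, against 21, 9 and 10 (4.42, 2.81 to 6.98). The ratio of the copy on 5B was the highest, with limits that overlap those of the other copies. TraesCS5B03G0387000 had 49 MIDs in section 1, against 5, 5 and 7 (11.9, 6.71 to 22.0). Its share of the MIDs of the XCP1 group was 25.1% in section 1 (19.2 to 31.8), against 12.1% in sections 2 to 4 (7.24 to 18.7). The copy on 5A kept a nearly constant share, 29.2% in section 1 and 30.0% in the others.

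The phloem genes did not share 1 pattern over the sections. TraesCS7D03G0500500, the HVA22 copy, had 2 MIDs in section 1, against 22, 5 and 29 in sections 2, 3 and 4, so that it was low in sections 1 and 3. The group on chromosome 2 had no MID in section 1. TraesCS2B03G0108200 had 4, 8 and 13 in sections 2, 3 and 4, TraesCS2D03G0068900 had 2, 14 and 2, and TraesCS2A03G0073400 had 0, 6 and 7. TraesCS2D03G0068900 was thus highest in section 3, where the HVA22 copy was lowest of the sections in which both were detected. Section 1 over sections 2 to 4, the ratio of rates was 0.147 for TraesCS7D03G0500500 (0.0174 to 0.556). With 0 MIDs in section 1 the upper limits were 0.654 for TraesCS2B03G0108200, 0.935 for TraesCS2D03G0068900 and 1.35 for TraesCS2A03G0073400, so the last was not distinguishable from an even rate at this depth. TraesCS6A03G0202900 had 3 MIDs in section 1 and 1 in each of the others, a ratio of 4.11 with limits from 0.551 to 30.7. The plotted gene TraesCS6D03G0279900 had 1 MID in section 2, 1 in section 3 and none elsewhere on the distal sections, too few to place.

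The genes of the same groups of orthologs that the study did not list gave a fuller picture of each family. In the XCP1 group, TraesCS1D03G0049400 had 16, 8, 1 and 1 MIDs in sections 1 to 4, and TraesCS1B03G0066500 had 5, 1, 4 and 1. The copies on group 5 chromosomes thus carried 215 of the 335 MIDs of the group, and among the copies on group 1 chromosomes the 1A gene carried 83, the 1D gene 26 and the 1B gene 11.

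In the HVA22 group the gene with the most MIDs was not the listed one. TraesCS7A03G0517200 had 21, 41, 10 and 38 MIDs in sections 1 to 4, more than the listed TraesCS7D03G0500500 in every section. TraesCS7B03G0335800 had 4, all in section 4, and TraesCS5D03G0557600 had 1, in section 1. Section 1 held the 7A copy at the rate of the other sections (ratio 0.970, 0.572 to 1.57), while the 7D copy was lower there, as given above. The 7D copy made up 8.33% of the group in section 1 (1.03 to 27), against 37.6% in sections 2 to 4 (29.8 to 45.9). The limits of these shares do not overlap, but they cover counting error only. The study chose the listed copy by eye on sections of this chip. Its lower share in section 1 can follow from that choice, so nothing further is read from it.

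In the group on 6A and 6B, TraesCS6B03G0270900 had 6, 0, 1 and 0 MIDs. In the ENODL15 group, TraesCS6A03G0325300 had 6, 0, 2 and 5, TraesCS6D03G0280000 had 4, 1, 2 and 2, TraesCS6A03G0324800 had 2, 4, 8 and 1, and TraesCS6B03G0419400 had 0, 0, 2 and 1. Both groups therefore had MIDs in section 1, where the listed phloem genes had 5 in all. The plotted gene was the lowest of the 5 ENODL15 genes, with 2 of their 42 MIDs.

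**Figure D2:**
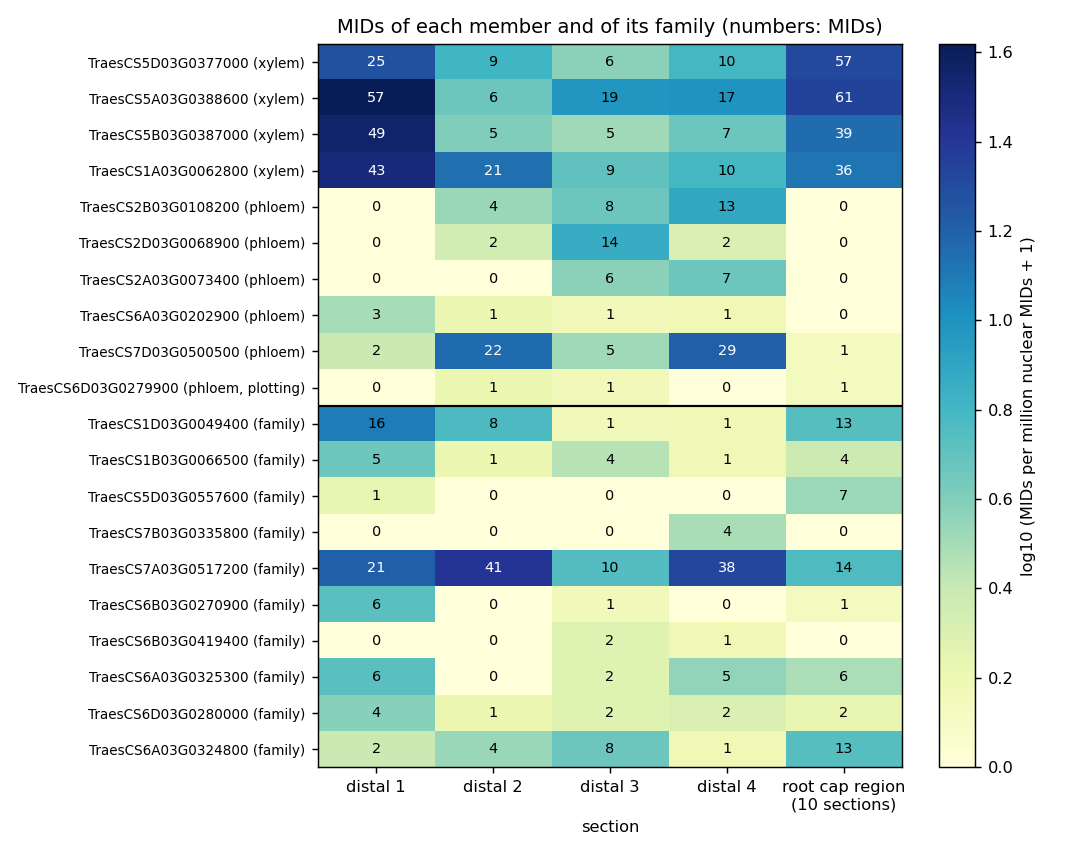
MIDs of the 10 members (above the line) and of the other genes of their groups of orthologs (below it), in distal sections 1 to 4 and in the 10 root cap region sections summed. Numbers are MIDs and shading is log10 of MIDs per 1000000 nuclear MIDs plus 1. The XCP1 genes are darkest in distal section 1, and the chromosome 2 phloem genes are at 0 there and in the root cap region.

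The second question was where the lists lay within a section. Both lay toward the centre in the distal root region, for which they had been chosen. The xylem list had a median radius of 0.415 (quartiles 0.340 and 0.503) and the phloem list 0.390 (0.335 and 0.452). Below a radius of 0.50 lay 73.8% of the xylem MIDs (68.5 to 78.7, with 25.4% expected from all nuclear MIDs) and 83.3% of the phloem MIDs (75.4 to 89.5, with 23.8% expected). Both medians lay just outside the central zone, although for phloem the median was inside it in section 2 (0.345) and under some of the alternatives. The next zone out held 112 xylem and 52 phloem MIDs, close to the 108 and 48 of the central one. The provascular list had 672 of 888 MIDs in the central zone.

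By density, the xylem genes peaked at a radius of 0.3 to 0.4 in section 1, with 809 MIDs per 1000000 spots (598 to 1069), and had 624 (411 to 908) in the bin inside it and 539 (389 to 729) in the bin outside it. In sections 2 to 4 they peaked at 0.4 to 0.5, with 147.5 (107.6 to 197.4), and had 134.9 (92.3 to 190.4) in the bin inside it. The intervals of these adjoining bins overlap, so a difference in the place of the peak between sections was not detectable. The phloem genes of sections 2 to 4 peaked at 0.3 to 0.4, with 181 (131 to 244), and also had 177 at 0 to 0.1, which rests on 6 MIDs (64.98 to 385). Beyond 0.5 both fell off, to 37.6 for xylem and 10.7 for phloem in the next bin of sections 2 to 4.

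**Figure D3:**
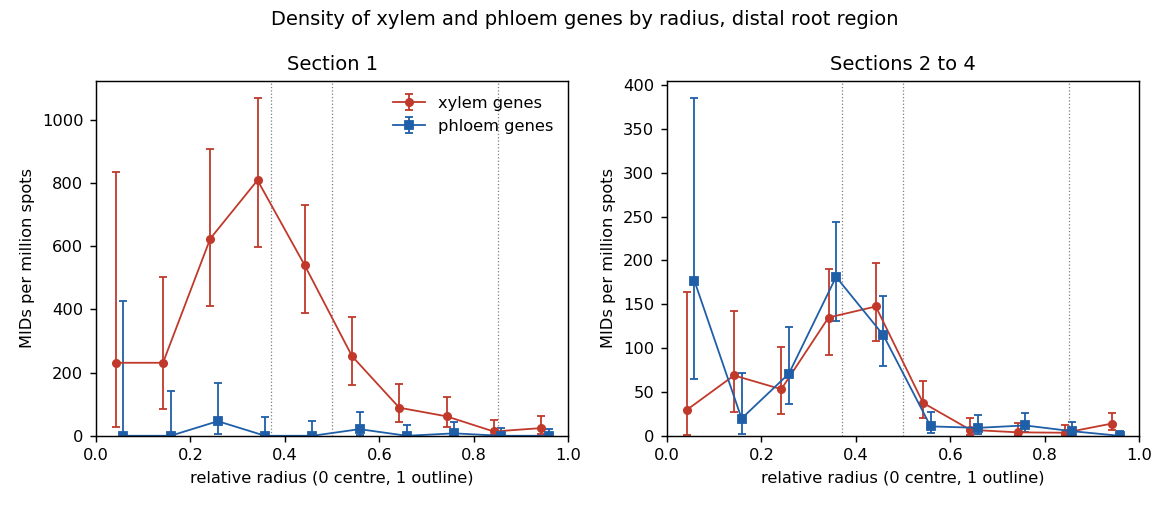
Density of the xylem genes (circles) and phloem genes (squares) by relative radius, in MIDs per 1000000 spots with exact 95% Poisson limits, for distal section 1 (left) and sections 2 to 4 (right, other scale). Dotted lines mark the zone limits at 0.37, 0.50 and 0.85. In section 1 the highest xylem bin is at 809 with few phloem MIDs, and in sections 2 to 4 the curves run close together.

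Values of position varied among the members of 1 list. In the central zone TraesCS7D03G0500500 had 30 MIDs where 7.18 were expected (log2 ratio 2.06, 1.495 to 2.58), with a median radius of 0.355. TraesCS2B03G0108200 had 4 of its 25 MIDs there and 17 between the radii of 0.37 and 0.50 (log2 ratio 0.34, -1.53 to 1.70). These phloem genes, 1 on each side of the zone limit, were the only ones with at least 20 MIDs. The 3 XCP1 copies on group 5 chromosomes had log2 ratios of 1.67 (5A), 1.62 (5B) and 1.51 (5D). The 1A copy had 0.69 (-0.06 to 1.36), a median radius of 0.458, and 28 of its 83 MIDs in the cortex zone, against 18 of 99 for TraesCS5A03G0388600. The log2 intervals of the phloem genes overlap, as do those of the 1A and 5A copies (5A, 1.21 to 2.10). These ratios therefore do not set the members apart. Of the 31114 genes with at least 20 MIDs, 4.31% were at least 2-fold higher in the central zone and 17.2% at least 2-fold lower. Past 2-fold higher were 3 of 4 xylem genes and 1 of these 2 phloem genes, and none was past 2-fold lower. The genes were chosen for this pattern, so nothing is read from these counts.

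Sections differed too. In section 3 only 3 of 34 phloem MIDs were in the central zone and 25 in the next one, with a median radius of 0.434. In section 2 the central zone held 18 of 29 (median 0.345) and in section 4 it held 25 of 52 (median 0.376). The log2 ratio for the phloem list was 2.34 in section 2 (1.59 to 3.00), -0.62 in section 3 (-2.90 to 0.93) and 1.98 in section 4 (1.35 to 2.54). In section 3 the HVA22 copy had 1 of 5 MIDs in the central zone and the chromosome 2 genes 2 of 28. In section 2 they had 13 of 22 and 4 of 6 there, and in section 4 15 of 29 and 9 of 22. Whether the mix of genes or the section itself shifted the list was not tested. For the xylem list the median radius stayed between 0.404 and 0.437 over the 4 sections. Its central log2 ratio was 0.60 in section 3 (-0.61 to 1.58), against 1.58, 1.26 and 1.39 in sections 1, 2 and 4.

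The unlisted family genes differed in position. The ENODL15 group had 22 of 42 MIDs in the central zone (log2 ratio 1.98, 1.31 to 2.58), with a median radius of 0.341. TraesCS7A03G0517200 of the HVA22 group had 36 of 110 there (1.37, 0.85 to 1.83), with a median radius of 0.460. It spread farther out than the 7D copy, with 60.9% of its MIDs below 0.50 (51.1 to 70.1), against 87.9% for TraesCS7D03G0500500 (76.7 to 95.01). TraesCS1D03G0049400 had 5 of 26 MIDs in the central zone (0.51, -1.11 to 1.73) and 16 between the radii of 0.37 and 0.50. TraesCS6B03G0270900 had 0 of its 7 MIDs in the central zone and TraesCS7B03G0335800 had 0 of its 4.

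**Figure D4:**
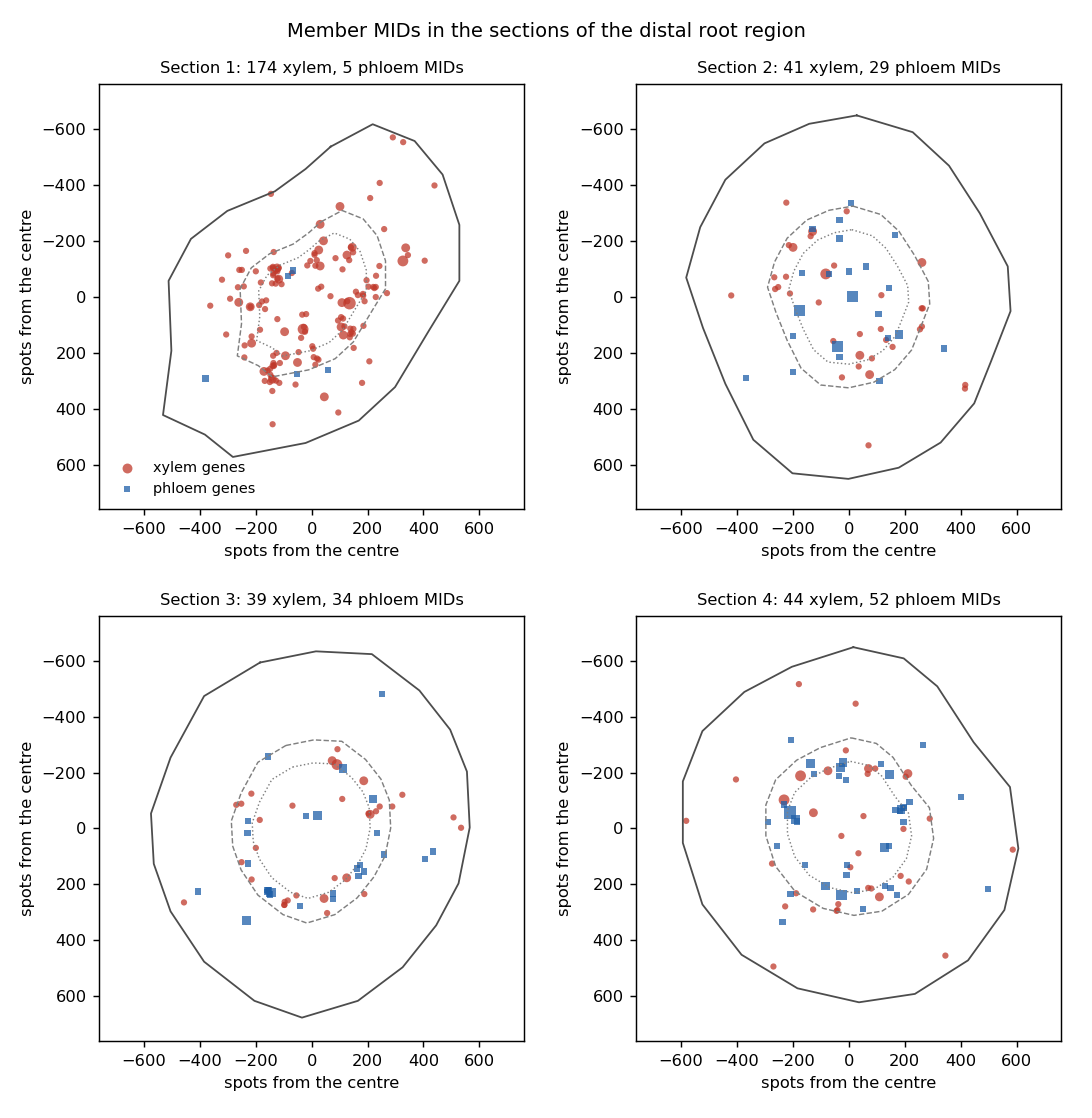
Positions of the MIDs of the xylem genes (circles) and phloem genes (squares) in the 4 distal sections, in spots from the section centre, with larger symbols for more MIDs at a spot. The solid line is the outline, the dashed line a radius of 0.50 and the dotted line 0.37. Section 1 holds 174 xylem and 5 phloem MIDs, and in sections 2 to 4 both lists lie mostly inside the dashed line and around the dotted one.

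The third question was whether xylem and phloem genes lay at different angles around the centre. Within a radius of 0.50, the MIDs of each section were counted in 12 sectors of 30°. In sections 2, 3 and 4 the sector with the most xylem MIDs was not the one with the most phloem MIDs. Over 12 sectors, lists unrelated in angle would often show this too, so nothing is read from it. In section 2 the top counts of both lists were ties. In section 2 the xylem genes had 7 MIDs in each of 2 sectors, which held 1 and 0 phloem MIDs. In section 3 the top phloem sector held 1 xylem and 8 phloem MIDs, and in section 4 it held 5 xylem and 9 phloem MIDs. The overlap of the sector shares (the sum of the smaller share in each sector) was 42.7% in section 2, 54.5% in section 3 and 68.4% in section 4. The same measure between copies of 1 xylem gene, TraesCS5A03G0388600 against the 5B and 5D copies, was 40%, 45% and 40%. It rested on 6, 16 and 15 MIDs of the 5A copy and on 10, 10 and 12 of the 5B and 5D copies. Overlap falls as MIDs become fewer, and the copies had fewer than the lists, so their values set no scale for those of the lists. At this depth the sector counts did not settle whether the lists were separated by angle. In section 1, with 2 phloem MIDs within this radius, the overlap of 8.73% cannot be read.

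Without sectors, the nearest member MID at another spot was found for each member MID within a radius of 0.50. In section 4 it was a xylem MID for 53.3% of the xylem MIDs (34.3 to 71.7), where xylem made up 39.5% of the member MIDs, and a phloem MID for 80.4% of the phloem MIDs (66.1 to 90.6), where phloem made up 60.5%. In section 3 the values were 65.6% for xylem (46.8 to 81.4), which made up 53.3%, and 71.4% for phloem (51.3 to 86.8), which made up 46.7%. In section 2 they were 62.5% for xylem (43.7 to 78.9), which made up 57.1%, and 41.7% for phloem (22.1 to 63.4), which made up 42.9%. Phloem MIDs thus lay beside phloem MIDs more often than their share in sections 3 and 4 and not in section 2. MIDs that lie in 1 clump are not independent, so these intervals are too narrow.

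The maps showed clumps, which were then counted. This measure was chosen after the values were seen. A clump was a set of at least 3 MIDs of 1 list, each at most 25 spots from another. In section 1 the xylem genes formed 15 clumps with 103 of their 174 MIDs, and 12 of the 15 held more than 1 gene. The largest ones had 17 MIDs each and all 4 genes, at radii of 0.337 and 0.491. The first of these held 6 MIDs of TraesCS5A03G0388600, 5 of TraesCS1A03G0062800, 3 of TraesCS5B03G0387000 and 3 of TraesCS5D03G0377000. In sections 2, 3 and 4 the xylem genes formed 3, 3 and 5 clumps, with 9 of 41, 14 of 39 and 16 of 44 MIDs.

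Of the phloem genes, section 3 held 1 clump of 8 MIDs, 17 spots wide, at a radius of 0.445. It contained 4 of the 5 listed genes, with 3 MIDs of TraesCS2B03G0108200, 2 of TraesCS2A03G0073400, 2 of TraesCS7D03G0500500 and 1 of TraesCS2D03G0068900. Section 4 had 6 phloem clumps with 23 of 52 MIDs. One of them had 6 MIDs of the 3 chromosome 2 genes, another had 2 MIDs each of TraesCS2A03G0073400 and TraesCS7D03G0500500, and the other 4 were of TraesCS7D03G0500500 alone. Section 2 had 3 clumps, each of 3 MIDs of 1 gene at 1 spot. Most gene and spot pairs had a single MID on the distal chip, 82.6% for the xylem genes with a highest value of 7, and 80.4% for the phloem genes with a highest value of 4.

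The fourth question was how the lists compared between the chips, that is, between 2 libraries. Within the distal sections the xylem genes had 298 MIDs, or 41.4 per 1000000 (36.9 to 46.4), and in those of the root cap region 193, or 65.6 per 1000000 (56.7 to 75.6). The phloem genes had 120 MIDs in the distal sections, or 16.7 per 1000000 (13.8 to 20.0), and 1 MID in the root cap region sections, or 0.340 per 1000000 (0.0086 to 1.90). Distal over root cap region, the ratio was 0.631 for xylem (0.525 to 0.761) and 49.1 for phloem (8.64 to 1954). Over the whole chips, MIDs outside the sections included, it was 0.4997 for xylem (0.466 to 0.536, 1879 and 1372 MIDs) and 17.03 for phloem (10.3 to 30.6, 700 and 15 MIDs). Of 35417 genes with at least 20 MIDs in the sections of both chips together, 20.2% were at least 2-fold higher in the distal sections and 8.96% at least 2-fold lower. Of the 4 xylem genes none was past 2-fold higher and 1, TraesCS5D03G0377000, was past 2-fold lower. The 2 phloem genes with that many MIDs reached the minimum only through the distal sections, so nothing is read from their side of 2-fold.

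The phloem genes were low on the root cap region chip one by one. On the whole chips TraesCS2B03G0108200 had 167 MIDs on the distal chip and 2 on the root cap region chip (ratio of rates 30.5, 8.30 to 254), TraesCS2D03G0068900 had 78 and 1 (28.5, 4.96 to 1138), and TraesCS2A03G0073400 had 58 and 1 (21.2, 3.65 to 850). TraesCS7D03G0500500 had 374 and 10 (13.7, 7.34 to 28.7), and TraesCS6A03G0202900 had 23 and 1 (8.39, 1.36 to 345.7). The unlisted genes of their groups varied. TraesCS7B03G0335800 had 92 and 2 (16.8, 4.52 to 140.7), as one-sided as the listed 7D copy within these limits, and TraesCS6B03G0270900 had 14 and 5 (1.02, 0.348 to 3.62). TraesCS7A03G0517200 had 721 and 92 (2.86, 2.299 to 3.59), the ENODL15 gene TraesCS6A03G0325300 had 59 and 61 (0.353, 0.243 to 0.513), and the plotted TraesCS6D03G0279900 had 26 and 17 (0.558, 0.292 to 1.096). TraesCS5D03G0557600 went the other way, with 5 MIDs on the distal chip and 26 on the root cap region chip (0.0702, 0.0210 to 0.186). Of the HVA22 group it made up 0.420% on the distal chip and 20.0% on the root cap region chip. The 5 genes listed for phloem thus had 1 to 10 MIDs each on the root cap region chip, and the unlisted genes of the HVA22 group and of the group on 6A and 6B had 2 to 92. The listed genes were chosen on the distal chip. Their ratios and the contrast with unlisted genes can follow from that choice, so nothing further is read from them.

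Among the xylem genes the chips differed most for TraesCS5D03G0377000, with 335 MIDs on the distal chip and 286 on the root cap region chip (ratio of rates 0.427, 0.364 to 0.502). TraesCS1A03G0062800 differed least, with 547 and 304 (0.657, 0.570 to 0.758), and made up 26.1% of the XCP1 group on the distal chip (24.3 to 28.1) and 19.7% on the root cap region chip (17.8 to 21.8).

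Within the root cap region the xylem genes varied widely. The 10 sections lie in 2 groups of 5 in the same arrangement on the chip, so each section has a counterpart in the other group, and whether the groups come from separate roots is not known. Sections 4 and 9 had 22 and 20 xylem MIDs, or 229 (143 to 346) and 230.2 (141 to 356) per 1000000, sections 3 and 8 had 23 and 56, or 72.5 and 132, and sections 2 and 7 had 23 and 36, or 73.3 and 58.1. Sections 1 and 6 had 7 and 3, or 18.4 and 8.64, and sections 5 and 10 had 1 and 2, or 5.96 and 10.6. The intervals of counterparts overlapped in all 5 pairs, while the rates of the pairs ranged from 5.96 in section 5 to 230.2 in section 9. The single phloem MID, of TraesCS7D03G0500500, was in section 10.

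In section 8, the root cap region section with the most xylem MIDs, 50 of 56 lay below a radius of 0.50 and 34 of 56 were in 6 clumps, 5 of them with more than 1 gene. Over all 10 sections 66.8% lay below 0.50 (59.7 to 73.4), where 23.9% was expected, and the median radius was 0.442. Several of these outlines are folded or torn, so the radius follows the layers less well there.

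**Figure D5:**
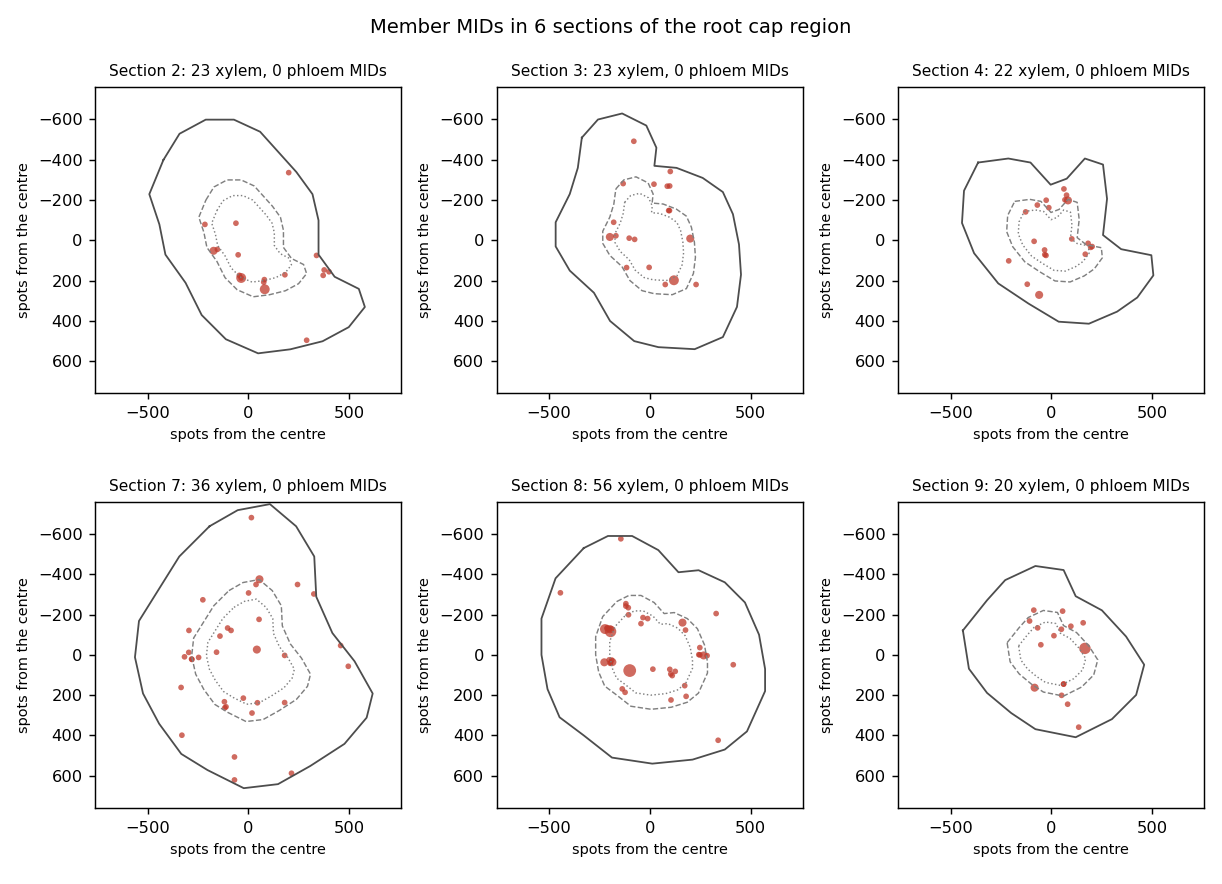
Positions of the MIDs of the xylem genes (circles) in the 6 root cap region sections with at least 20 of them, in spots from the section centre, with larger symbols for more MIDs at a spot. The solid line is the outline, the dashed line a radius of 0.50 and the dotted line 0.37. No phloem MID falls in these sections, and in section 8 most of the 56 xylem MIDs lie inside the dashed line.

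Other genes with a xylem or phloem assignment were taken as the study's tables of orthologs give them. The groups of orthologs with xylem specificity in Arabidopsis, wheat, rice and maize held 38 further wheat genes. Of these 24 had a MID in the distal sections, 223 in all, so most could not be placed. Only 3 had at least 20, and in the central zone 0 were past 2-fold higher and 1 past 2-fold lower (all genes 4.31% and 17.2%). TraesCS2D03G0354800 had 79 MIDs, 15, 15, 31 and 18 in sections 1 to 4, and TraesCS2B03G0454200 had 45, with 12, 8, 11 and 14. TraesCS7A03G0446200, an ortholog of the small GTPase ROP8, had 16, 3, 1 and 2. It reached 20 MIDs only through section 1, so nothing is read from its count there. In the central zone it had 0 of its 22 MIDs, where 3.02 were expected. The upper limit of its log2 ratio was 0.29, so it was not distinguishable from all nuclear MIDs at this depth. Its relative TraesCS7D03G0430200 had 9 MIDs.

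The phloem groups shared by at least 2 species held 58 genes, of which 48 had a MID and 20 had at least 20. Of these 20, 5 were past 2-fold higher in the central zone and 0 past 2-fold lower (all genes 4.31% and 17.2%). The median log2 ratio was 0.50 (all genes -0.06). TraesCS1D03G0796200, TraesCS6B03G0945500 (6 of 22 MIDs central) and TraesCS2A03G0650000 (9 of 26) reached 20 MIDs only through the central zone. The remaining genes of the 5 were those of the PDF2.3 group given below, so the count is not read as a result. Between section 1 and sections 2 to 4, 13 of the 20 were past 2-fold higher and 1 past 2-fold lower (all genes 26.3% and 19%), with a median log2 ratio of 1.32. Some of the 13 reached 20 MIDs only through section 1, such as TraesCS1A03G0623200 with 17, 0, 0 and 5 MIDs in sections 1 to 4. TraesCS2B03G0559800, with 46, 4, 2 and 11, was another. Others did not, such as TraesCS1D03G0271100 with 148, 20, 60 and 15. The count of 13 follows in part from this minimum and is not read as a result. Among the 20 genes TraesCS1D03G0796200, an ortholog of the DOF-type transcription factor COG1, was the most central, with 14 of 21 MIDs (log2 ratio 2.298, 1.43 to 3.05) and 8, 1, 9 and 3 in sections 1 to 4. It reached 20 MIDs only through the central zone, so nothing is read from its rank. The defensin genes of the PDF2.3 group, TraesCS4D03G0748700 with 587 MIDs and TraesCS4B03G0840800 with 495, had log2 ratios of 1.65 and 1.57 and were spread over all sections. The study cited both as orthologs of an Arabidopsis pericycle marker, for a cluster that it annotated as most likely pericycle. They are thus not markers of phloem alone. The annexin gene TraesCS7D03G0408700 (AtANN2) had the most MIDs, 606, and the lowest central value of the 20, -0.73 (-1.17 to -0.32), while its copy TraesCS7A03G0420200, with 370, had 0.43. TraesCS7B03G1179800 had -0.41 (-1.73 to 0.63) and 4, 4, 43 and 20 MIDs over the sections.

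Genes that the study matched to wheat protoxylem numbered 14, and to protophloem 10. Of the protoxylem genes 8 had at least 20 MIDs, and 4 of these were past 2-fold higher in the central zone (all genes 4.31%). Among the 4, TraesCS1B03G0516300, with 17 of 33 MIDs central, reached 20 MIDs only through that zone, so the count follows in part from the minimum. In section 1, 3 of the 8 were past 2-fold higher and 1 past 2-fold lower (all genes 26.3% and 19%), which is too few to set apart from all genes. Among the 3, TraesCS1D03G0049400 of the XCP1 group, given above, reached 20 MIDs only through section 1. The lower gene, TraesCS1A03G0427500 with 7 MIDs in section 1, reached them only through the other sections. Of the protophloem genes 4 had at least 20 MIDs, and 3 of these were past 2-fold higher in the central zone. Among these 3 were both PDF2.3 genes given above, so the count is not separate from that of the shared phloem groups. In section 1, 0 of the 4 were past 2-fold higher and 2 past 2-fold lower. Both reached 20 MIDs only through the other sections, so nothing is read from their side of 2-fold. TraesCS5D03G0769300 had 0 MIDs in section 1 and 28 in the other sections.

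The genes with the most similar profiles were sought among 18413 genes with at least 50 MIDs, by Pearson's r over 40 points (4 sections by 10 radius bins) of 1 chip, which share libraries and depth. Nearest the xylem list were TraesCS1B03G0809200 (r = 0.893), with 100, 17, 8 and 10 MIDs in sections 1 to 4, TraesCS7B03G0361400 (0.861), with 55, 0, 1 and 3, and TraesCS6A03G0805900 (0.840), with 76, 19, 18 and 24. All were highest in section 1, as the xylem list was. Nearest the phloem list were TraesCS5D03G0225900 (0.801), with 8, 18, 42 and 27, TraesCS7D03G0195000 (0.798), with 17, 42, 51 and 69, and TraesCS5D03G0320900 (0.774), with 62, 108, 135 and 132. All were lowest in section 1, as the phloem list was, and TraesCS7D03G0195000 is also 1 of the 10 protophloem genes. The genes were picked for their likeness to each list over these sections, so their order by section follows from that choice. Between the xylem list and the phloem list r was -0.05.

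Most MIDs of the members lay outside the outlined sections, as did those of all genes. On the distal chip 15.9% of the xylem MIDs (14.2 to 17.6) and 17.1% of the phloem MIDs (14.4 to 20.1) were inside, against 9.28% of all nuclear MIDs. Inside the distal outlines the xylem genes had 69.8 MIDs per 1000000 spots, and outside them 10.3 within 50 spots, 14.8 at 50 to 150 and 24.6 at 150 to 300. The phloem genes had 28.2 inside, and 1.29, 2.28 and 6.15 outside. Both were lowest just outside the outline. The part of these MIDs in the values inside the sections was not tested beyond the subtraction given with the alternatives.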

How the data were processed

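The authors processed the reads of each chip with the STOmics Analysis Workflow. They deposited, for every gene and capture spot, the count of MIDs and its exonic part. These deposited counts cover the whole chip and are neither normalized, binned nor restricted to tissue. Genome build and aligner settings of the spatial reads were not given in the sources used here. Rows of the chloroplast and mitochondrial genomes, with 0.00494% of the MIDs in the distal root region and 0.00193% in the root cap region, were left out.

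Section outlines were drawn by hand on a density map of the summed MIDs. The study's images, cell outlines and single-cell data were not used here. Relative radius divides the distance of a spot from the centroid by the length of the ray through it to the outline. Expected MIDs of a zone came from all nuclear MIDs of the same zone and section. Ratios of rates have exact conditional limits and use the counts as they are. Gene counts past 2-fold used genes with at least 20 MIDs, and for section 1 and the chips any count under 3, on either side, was set to 3 MIDs. The reference table of gene names matched 0 gene IDs, and names were taken from the study's tables.

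The members, the lists and the tests were chosen with earlier results of these data known. Named by rule were all members and their groups of orthologs, of the other lists the 4 genes with the most MIDs and the 2 highest and 2 lowest in central enrichment, and the 3 genes nearest to each list in profile. Alternatives were the zone limits, the radius, the centre, the outlines, the counted MIDs, the lists, single sections left out, the sectors, whole chips, and the minimum and fold. Python 3.11.15, numpy 2.4.6, pandas 2.3.3, scipy 1.17.1 and matplotlib 3.10.9 were used, and the steps were tested on simulated data.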

Additional observations from a re-analysis of the deposited data

Results flagged for a closer look

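A signal of the members stood outside the data compared above. On the distal root region chip 1581 xylem MIDs and 580 phloem MIDs lay outside the outlined sections, and on the root cap region chip 1179 xylem MIDs and 14 phloem MIDs did. Within 2000 spots of an outline on the distal chip, the MIDs nearest to section 1 were 501 xylem and 17 phloem, a xylem share of 96.7% (94.8 to 98.1), and those nearest to sections 2 to 4 were 354 xylem and 230 phloem, a share of 60.6% (56.5 to 64.6). On the root cap region chip they were 525 xylem and 10 phloem, 98.1% (96.6 to 99.1). Inside the sections the shares were 97.2%, 51.9% and 99.5%. Sections 2 to 4 were not alike in this. The share outside was 61.1% nearest to section 2 and 55.2% nearest to section 3, against 58.6% and 53.4% inside them. Nearest to section 4 it was 63.7% (57.3 to 69.7), above the 45.8% inside section 4 (35.6 to 56.3) with no overlap of the intervals, and in the band from 1000 to 2000 spots it was 78.1% (68.97 to 85.6).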

How the results depend on the processing

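Of 191 recomputed values, 143 stayed within their counting interval or count range and 48 moved beyond it. A reversal was defined only for the central log2 ratios, of which 0 changed sign. Some of the 143, such as section shares under other zone limits or another radius, could not change at all. The central log2 ratio was 1.42 for xylem and 1.66 for phloem. It was 0.88 and 0.92 with outlines at 90% of their radius, 1.70 and 2.08 at 110%, and 1.74 and 2.25 with off-tissue density subtracted. For xylem it was 1.103 with zone limits 10% closer to the centre and 1.119 without section 1. For phloem it was 1.17 without TraesCS7D03G0500500 and 2.09 without section 3. The share of MIDs below a radius of 0.50 (73.8% xylem, 83.3% phloem) was 64.9% and 74.2% at 90% outlines, and 88.7% and 91.9% after subtraction. For xylem it was 79.5% with the radius from the nearest outline point, 82.2% at 110% outlines and 79.1% without TraesCS1A03G0062800. With other zone limits the share was taken inside the moved limit, and the share below 0.50 itself does not depend on them. It was 62.1% and 74.2% inside a limit 10% closer to the centre, and 83.9% for xylem inside a limit 10% farther out. These stand among the values that moved. The median radius (0.415 xylem, 0.390 phloem) was 0.372 and 0.363 by the nearest outline point, 0.458 and 0.433 at 90% outlines, and 0.380 and 0.356 at 110%. It was 0.396 for xylem without TraesCS1A03G0062800 and 0.366 for phloem without section 3. The cause of the shifts other than those from a moved limit was not tested.

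Without TraesCS1A03G0062800 and TraesCS7D03G0500500 the xylem share was 74.1% in section 2, 59.7% in section 4 and 58.7% in sections 2 to 4, against 58.6%, 45.8% and 51.9% with them, so which list was larger in section 4 depends on these genes. With off-tissue density subtracted the share in sections 2 to 4 was 47.9%, so the larger list there depends on the processing. The sector overlap was 31.9% in section 4 with 24 sectors, and below a radius of 0.37 it was 43.7% in section 4 and 0% in section 3, where that radius leaves 3 phloem MIDs. The xylem ratio between the chips was 0.4997 over whole chips. The conserved xylem groups had 1 gene higher in the central zone at 1.5-fold and 0 lower at a minimum of 50 MIDs. The shared phloem groups had 9 higher and 1 lower at 1.5-fold, 1 higher at 4-fold, 10 higher at a minimum of 10 MIDs and 2 at 50. Protoxylem had 0 higher at 4-fold, and protophloem 0 at 4-fold and 6 at a minimum of 10 MIDs. The share of xylem MIDs in clumps (47.7%) was 28.5% at a link of 15 spots and 57.7% at 40, and that of phloem MIDs (33.3%) was 46.7% at 40. These link distances were chosen after seeing the data.

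No paired analysis was possible because each region has 1 library. Depth limits most values. TraesCS6A03G0202900 and TraesCS6D03G0279900, with 6 and 2 MIDs in the distal sections, could not be placed, and single phloem genes had too few MIDs for angles.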
